A study of Mus musculus with 140 samples.

Results

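The splicing factors and heterogeneous nuclear ribonucleoproteins (hnRNPs) of mouse embryonic stem cells were followed by day through 9 culture courses. The genes were taken from the annotation of the arrays by symbol, as those that start with Srsf, Hnrnp, Snrp, Sf3a or Sf3b, and a probe set was used where it named exactly 1 gene. This gave 47 genes of 18193 with such a probe set, by a rule that uses the symbol alone. They were 19 hnRNPs, 10 SR proteins (Srsf), 9 proteins of the small nuclear ribonucleoproteins (Snrp) and 9 subunits of the SF3A and SF3B complexes. The 47 genes had 139 probe sets, and each gene was represented by the one with the highest mean signal. The signal of 45 genes lay above the median of its array table on at least 3 arrays, and these were tested. The other 2, Srsf12 (mean signal 24.5) and Snrpn (mean signal 52.1), an imprinted relative of Snrpb with high expression in brain, stayed below and are given no fold. Snrpd1, Snrpd2, Snrpa and Hnrnpa3 were not analysed here. Relatives within these families resemble each other in sequence, and signal shared between relatives was not tested.

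All cells were of the CCE line, derived from a male 129/Sv mouse. In 7 courses the cells carried a vector with a short hairpin RNA (shRNA) against Nanog, Sox2, Oct4 (the protein of Pou5f1), Tcl1, Tbx3, Esrrb or the transcript labelled Mm343880, and in an eighth they carried the empty vector. These cells were kept in LIF (leukaemia inhibitory factor, which holds embryonic stem cells undifferentiated) at 1000 units/ml, and cells positive for the vector's GFP were sorted each day, with day 0 at 48 hours after transduction. The ninth course was cultured with retinoic acid (5 µM) in the absence of LIF, and the labels describe no transduction or sorting for it. Retinoic acid, the loss of LIF, transduction and sorting therefore cannot be told apart when this course is set against the empty vector. Each course held 1 sample per day, from day 0 to day 7 (8 samples) or, for Mm343880 and retinoic acid, to day 6 (7 samples). No transduction was repeated. The p-values therefore reflect only how far the samples of a course scatter about a smooth curve over its days, and some of that scatter may be technical. All differences from the empty vector share the same 8 empty vector samples.

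Splicing removes introns in the spliceosome, which assembles on each intron from small nuclear ribonucleoproteins (snRNPs). The U1 snRNP recognises the start of the intron and the U2 snRNP its branch point. A ring of Sm proteins, which includes Snrpb, Snrpd3, Snrpe, Snrpf and Snrpg, surrounds the RNA of most snRNPs, while SF3A and SF3B are protein complexes of U2 that hold it on the branch point. SR proteins bind exons and help to bring these machines to splice sites, and hnRNPs coat the new transcript and often block or shift splice-site choice. Many SR proteins and hnRNPs tune their own messages by alternative splicing, which an array probe at the 3′ end of a message does not resolve.

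Each RNA sample was measured on a pair of arrays (A and B), giving 140 arrays. A gene was read from A or from B, so its value for a course and day rests on 1 array, which limits its precision. The median signal on A arrays ran from 236.1 to 382.9, and the normalization controls had a trimmed mean of 2500 on each array. The ratio of 3′ to 5′ Gapdh signal, a sign of RNA integrity, ran from 0.703 to 0.898 on A arrays. Each targeted gene with a probe set was lower on days 4 to 6 than in the empty vector, from Tcl1 (log2 difference -2.01) to Esrrb (-3.24). On days 0 and 1 these genes were already lower, from Tcl1 (-1.39) to Esrrb (-3.50). Summed signals of 10 embryonic stem cell markers were 101600 to 122700 on days 4 to 6 in the empty vector course. In the retinoic acid course they were 1001 to 2986 on those days, with 8 of the 10 genes below the median of the array. The courses also differed in trophectoderm markers, whose sum of 10 genes was 4847 to 7946 in the empty vector course on days 4 to 6. It was 48630 to 122000 with Nanog, 80940 to 95340 with Oct4 and 72560 to 98750 with Sox2 shRNA. With Esrrb shRNA the sum was 18940 to 58100, with Tbx3 7869 to 41000, with Tcl1 8824 to 22620 and with Mm343880 8254 to 37980. In bulk RNA of this kind, fewer cells of a type and less RNA per cell cannot be told apart.

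The family was abundantly transcribed in every course. The median gene of the 45 ranked at the 95.4th percentile of its array table by mean signal, and 29 of the 45 lay above the 90th percentile. Signals of 44 genes were above the table median on all 70 arrays, and Hnrnph2, which binds G-rich RNA, was so on 64. The highest mean signals were those of Hnrnpab (31050 ± 8815, SD, n = 70), Hnrnpc (15630) and Snrpe (14460), though signals of different probe sets are not on a common scale. The coefficient of variation over the 70 samples had a median of 22.7% and a range from 16.1% to 84.7%. The widest range was that of Hnrnph1, whose signal ran from 584.2 on day 2 of the Esrrb course to 9982 on day 4 with retinoic acid.

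The question of the retinoic acid course was how the family changes as the cells leave the stem cell state. Late values, taken as the mean of the fitted curve over days 4 to 6, were compared with the empty vector on the log2(signal + pseudocount) scale. Of the 45 genes, 22 were higher and 10 lower by limma at an adjusted p under 0.05, against 27.5% of all 14558 genes higher and 23.5% lower. The share called in either direction, 32 of 45, stood beside 51.0% of all genes. The classes differed in direction. Among hnRNPs 15 of 19 were higher and 1 lower, with a median log2 difference of 0.68, and among SR proteins 4 of 9 were higher and the others were not called (median 0.39). Among snRNP proteins 1 of 8 was higher and 5 lower (median -0.69), and among SF3A and SF3B subunits 2 of 9 were higher and 4 lower (median -0.34). The median over all genes was 0.04. Quantile normalization of the arrays moved that median to -0.21 and the share of all calls that were higher from 53.9% to 39.9%, and gave 25 genes of the family higher and 9 lower. Leaving out day 6 in all courses lowered the count of called genes from 32 to 15, of which 6 were higher and 9 lower. Day 6 is the last day of the retinoic acid course, so that fit extends its curve beyond the remaining samples.

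**Figure D1:**
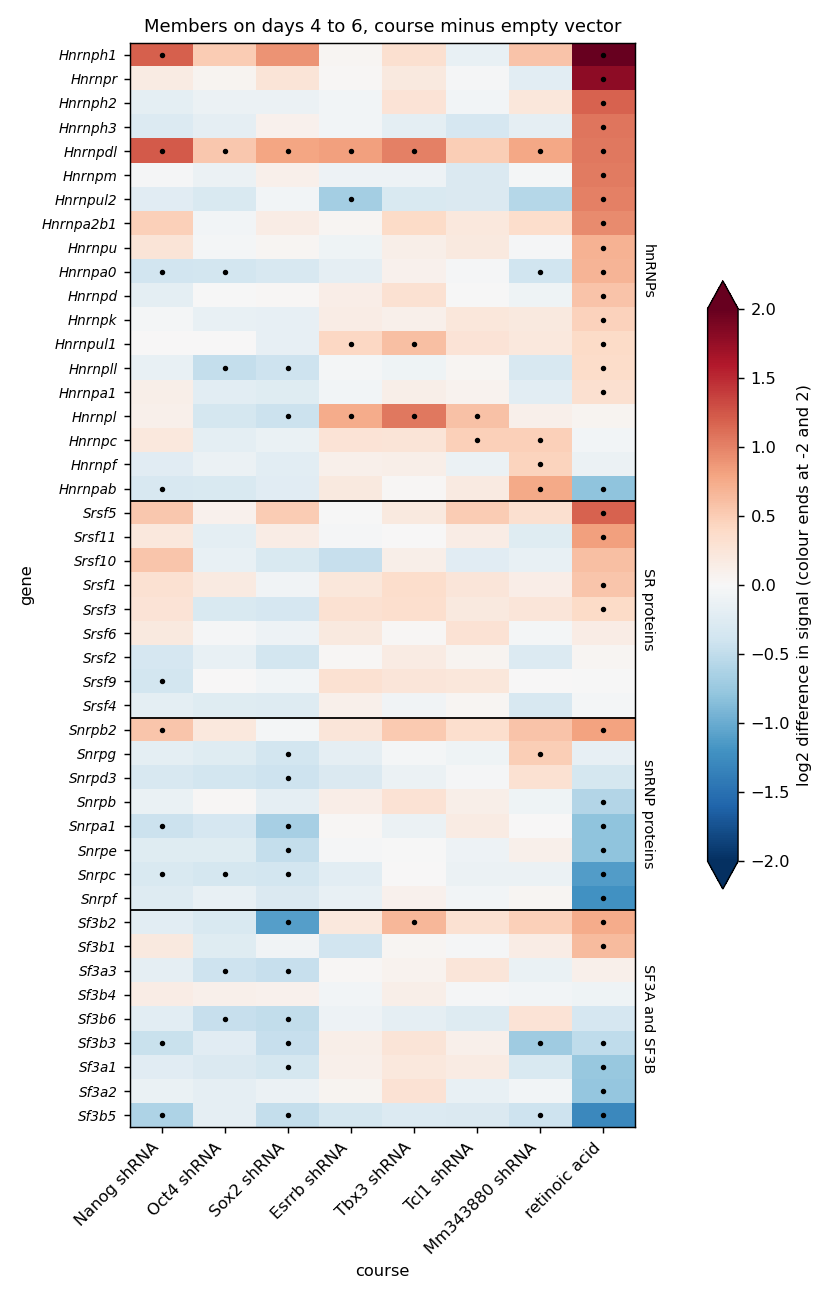
Log2 difference on days 4 to 6 for the 45 tested genes (rows, by class) in each course against the empty vector (columns). Colour gives the size and sign up to a log2 difference of 2 either way, and dots mark an adjusted p under 0.05 by limma. In the retinoic acid column 15 of 19 hnRNPs carry a dot as higher and 5 of 8 snRNP proteins as lower, while most cells of the knockdown columns have none.

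The largest differences belonged to hnRNPs. Within the retinoic acid course itself few hnRNP changes were called from days 0 and 1 to days 4 to 6. The median log2 change of the 19 was -0.09, with 1 rise and 1 fall, and day 1 counts here as part of the start. In the empty vector course the median was -0.30, with 1 fall. Hnrnph1, which binds runs of G and regulates many alternative exons, had signals of 5376, 9235, 8068, 8056, 9982, 7910 and 8540 on days 0 to 6 with retinoic acid. In the empty vector course its signals were 3937, 1491, 1674, 1096, 1014, 1282, 1868 and 2221 on days 0 to 7. The courses did not overlap, and both ended the comparison far apart: 8811 ± 1062 against 1388 ± 437 on days 4 to 6 (SD, n = 3 days each). The fitted log2 difference was 2.60 ± 0.35 (SE), with an adjusted p of 2.6e-08 by limma. A dimmer second probe set of Hnrnph1 was also called higher, by 0.91. The related Hnrnph2 stood at 1129 ± 122 against 421 ± 94.4 (log2 difference 1.18, adjusted p = 7.58e-05 by limma), but this call was lost without day 6.

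Hnrnpr, which binds RNA in the nucleus and in axons, was measured at 3128, 3094, 5564, 3357, 3650, 5904 and 5026 on days 0 to 6 with retinoic acid. The empty vector samples read 2393, 1345, 1139, 1095, 1308, 1660, 947 and 1122. Every retinoic acid sample was above the highest empty vector sample, and the late log2 difference was 1.80 ± 0.21 (SE, adjusted p = 1.46e-09 by limma). Of the 5 probe sets of Hnrnpr 4 were called higher, by 1.43 to 1.88. Smaller late differences of 0.94 to 1.06 were found for Hnrnpa2b1, a reader of RNA sorting signals and splice sites, and for Hnrnpul2, Hnrnpm, Hnrnpdl and Hnrnph3. Hnrnpa2b1, for example, stood at 9786 ± 738 with retinoic acid and 5084 ± 388 in the empty vector (SD, n = 3 days), while on day 0 the courses read 9155 and 9156. For Hnrnpdl, 6 of 7 probe sets were called higher.

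Hnrnpab, an RNA-binding protein of mRNA transport, was the 1 hnRNP called lower. It read 18140 ± 648 with retinoic acid and 32910 ± 5512 in the empty vector course on days 4 to 6 (SD, n = 3 days), a log2 difference of -0.81. Its direction depended on the probe set, however. The other probe sets gave differences up to 0.47, of which 3 were called higher, and the mean of all probe sets gave 0.18 (adjusted p = 0.117 by limma). Hnrnpf, Hnrnpc and Hnrnpl were not called, with log2 differences of -0.12, -0.05 and 0.06.

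Of the SR proteins, Srsf5 differed most with retinoic acid. Srsf5, which promotes exon inclusion, read 9907, 9744, 6878, 6947, 9052, 6574 and 8482 on days 0 to 6 with retinoic acid. The empty vector samples fell from 9493 on day 0 to 2357 on day 6 and stood at 3069 on day 7. The 2 courses thus began alike and parted mainly through lower signals in the empty vector samples. Late signals were 8036 ± 1298 against 3320 ± 835 (SD, n = 3 days), a log2 difference of 1.17 ± 0.26 (SE, adjusted p = 0.000142 by limma) that was not called without day 6. The other calls were Srsf11 at 0.81, Srsf1 (a founding member of the family) at 0.55 and Srsf3 at 0.39. Srsf2, Srsf4, Srsf6, Srsf9 and Srsf10 were not called.

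**Figure D2:**
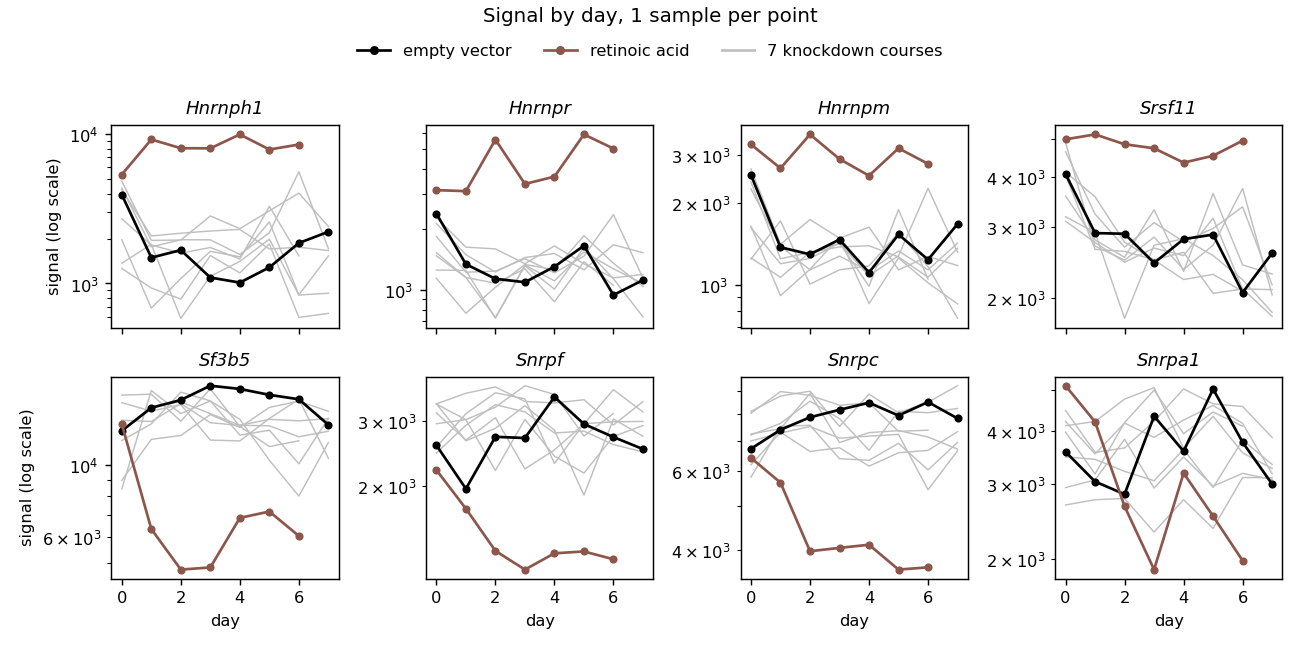
Signal by day (x axis, days; y axis, log-scaled signal in arbitrary units) of 8 genes, 4 higher and 4 lower with retinoic acid, in that course, in the empty vector and in the 7 knockdown courses (grey). Hnrnph1 and Hnrnpr lie above the empty vector on every day, while Snrpf, Snrpc and Sf3b5 start near it and lie below it from day 1 or 2 on.

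Of the 5 tested Sm proteins 3 were lower with retinoic acid, and so was the U1 protein Snrpc. Snrpf, of the Sm ring, had signals of 2213, 1741, 1340, 1193, 1320, 1335 and 1272 on days 0 to 6, against 2581, 1970, 2719, 2699, 3482, 2944, 2715 and 2520 in the empty vector course. From day 2 on every retinoic acid sample was below every empty vector sample. The late values were 1309 ± 33 and 3047 ± 394 (SD, n = 3 days), a log2 difference of -1.21 ± 0.14 (SE, adjusted p = 1.06e-09 by limma). Within the ring, Snrpe differed by -0.80 and Snrpb by -0.58 and both were called, whereas Snrpd3 (-0.35, adjusted p = 0.0596 by limma) and Snrpg (-0.16, adjusted p = 0.195 by limma) were not. The Sm proteins that could be tested therefore spanned a range from -1.21 to -0.16 although they form a common ring.

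Snrpc, which contacts the junction of U1 with the start of the intron, fell from 6404 on day 0 to 3970 on day 2 and 3655 on day 6 with retinoic acid. The empty vector samples lay between 6711 and 8528 throughout. The late difference was -1.12 ± 0.10 (SE, adjusted p = 2.22e-13 by limma). Of the U2 pair, Snrpa1 was lower by 0.80 on the log2 scale (2567 ± 602 against 4125 ± 781, SD, n = 3 days), while Snrpb2 was higher by 0.80 (2474 ± 127 against 1365 ± 127). These 2 proteins bind U2 RNA together. Snrpb2's difference was already 0.71 on days 0 and 1, and within the retinoic acid course Snrpa1 fell by 0.87 while Snrpb2's change of -0.20 was not called.

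Subunits of SF3A and SF3B also divided. Sf3b5, a small SF3B subunit, read 13280 on day 0 with retinoic acid, then 6362, 4786, 4859, 6880, 7194 and 6061 on days 1 to 6. Empty vector samples ranged from 12680 to 17400. The samples of day 0 were alike and those of every later day were far apart, with a late difference of -1.29 ± 0.13 (SE, adjusted p = 1.72e-11 by limma), and a second probe set was called lower by -1.12. Sf3a2, which helps U2 bind the branch site, differed by -0.77, Sf3a1 by -0.76 and Sf3b3 by -0.51. The third SF3A subunit, Sf3a3, differed by 0.09 and was not called, and neither were Sf3b4 (-0.09) and Sf3b6 (-0.34), the protein that touches the branch-point adenosine.

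Sf3b1, the large scaffold of SF3B, was higher with retinoic acid by 0.64 (4585 ± 293 against 2867 ± 325, SD, n = 3 days). Sf3b2 was higher by 0.74 with its brightest probe set, at 6365 to 6776 on days 4 to 6 against 3279 to 4481. Other probe sets of Sf3b2 disagreed: 2 were called lower. Over all genes called in this comparison, 24 had further probe sets, 64 in number, of which 50 had the same sign, 36 were called in that direction and 5 were called in the opposite one. Those 5 belonged to Hnrnpab and Sf3b2.

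Part of the retinoic acid difference was present in the mean of days 0 and 1. That mean cannot separate day 0 from changes arising by day 1. Median log2 differences from the same day's empty vector were 0.16 on day 0 and 0.60 on day 1 for hnRNPs. For snRNP proteins they were 0.12 and -0.14, and for SR proteins 0.26 and 0.35. For SF3A and SF3B subunits they were 0.07 and -0.25. On days 0 and 1, 6 of the 45 genes exceeded the empty vector and 2 lay below it, against 4.36% and 6.17% of all genes. The higher genes were Sf3b2 (1.58), Hnrnph1 (1.30), Hnrnpr (0.83), Sf3b1 (0.78), Snrpb2 (0.71) and Sf3a3 (0.54), and the lower ones were Sf3b4 (-0.66) and Sf3b5 (-0.54). On day 0 Sf3b2 read 7328 with retinoic acid against 2327 in the empty vector. Sf3b5 read 13280 against 12680 on day 0 and 6362 against 14900 on day 1. The difference on days 0 and 1 was then subtracted, a setting chosen after seeing the data, which also removes differences arising by day 1. This left 1 gene higher and 9 lower, against 13.3% and 10.9% of all genes. The higher gene was Hnrnpr (0.97, adjusted p = 0.0301 by limma). Lower by this measure were 5 snRNP proteins, Snrpa1 (-1.22), Snrpf (-0.93), Snrpc (-0.86), Snrpe (-0.66) and Snrpb (-0.53), with Sf3b5, Sf3a1, Sf3a2 and Hnrnpab. Hnrnph1 differed by 1.30 early and by 1.30 more late, but the later part was not called (adjusted p = 0.0814 by limma).

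Within the retinoic acid course, the change from days 0 and 1 to days 4 to 6 was a rise in 2 genes and a fall in 12, against 18.6% and 14.9% of all genes. Among snRNP proteins 6 of 8 fell, led by Snrpa1 (by 0.87 on the log2 scale), and 4 of 9 SF3A and SF3B subunits fell, led by Sf3a1 (by 0.69). Hnrnpa0, a small hnRNP that binds AU-rich RNA, rose by 0.44 and Srsf9 by 0.36. Quantile normalization gave 3 rises and 8 falls, with the median of all genes moved from 0.11 to -0.06. Without day 0, which leaves 1 early sample, 3 genes were called in place of 14, without day 1 there were 9 and without day 6 there were 5.

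The promoters of the family were examined because genes of a class often differed in the same direction. RefSeq promoters (mouse build GRCm38.p6) matched 42 of the 47 genes, and the 250 bases before each start were searched on both strands. The letters CCGGAAG, the core that ETS-family factors read, occurred in 14 of the 42 (33.3%), in 13.6% of the tested genes with a promoter and in 7.83% of all 27025 promoters. Of the SF3A and SF3B genes 6 of 7 held them, and Sf3a1, Sf3a2 and Sf3a3, which encode the 3 subunits of a single complex, are shown with the letters in capitals (read on the opposite strand in Sf3a3):
Sf3a1, chr11:4160254-4160353, plus strand: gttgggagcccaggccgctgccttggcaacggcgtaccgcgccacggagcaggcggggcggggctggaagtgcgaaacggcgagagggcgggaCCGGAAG
Sf3a2, chr10:80798614-80798713, plus strand: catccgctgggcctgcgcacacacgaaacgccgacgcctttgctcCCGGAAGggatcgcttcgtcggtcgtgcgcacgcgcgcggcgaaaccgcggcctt
Sf3a3, chr4:124714726-124714825, plus strand: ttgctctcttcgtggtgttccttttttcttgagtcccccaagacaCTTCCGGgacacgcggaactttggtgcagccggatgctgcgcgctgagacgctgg

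The letters CCAAT, known as the CCAAT box, occurred in 21 of the 42 promoters (50.0%), against 39.6% of the tested genes and 37.5% of all promoters. Of the hnRNP genes 12 of 17 held them. Hnrnpr, with the second-largest upward difference with retinoic acid, holds them 2 times within 100 bases and Hnrnpa0, which rose within that course, holds them close to its start, in both cases on the opposite strand as ATTGG. Snrpf and Hnrnpab, both lower with retinoic acid, also hold them 2 times within 100 bases, and Snrpf is shown beside the other pair:
Hnrnpr, chr4:136310752-136310851, plus strand: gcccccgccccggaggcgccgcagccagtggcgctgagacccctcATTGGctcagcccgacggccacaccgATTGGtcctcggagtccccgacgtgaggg
Hnrnpa0, chr13:58128568-58128667, minus strand: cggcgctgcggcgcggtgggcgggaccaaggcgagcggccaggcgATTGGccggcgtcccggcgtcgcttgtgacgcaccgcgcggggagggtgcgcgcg
Snrpf, chr10:93589684-93589783, minus strand: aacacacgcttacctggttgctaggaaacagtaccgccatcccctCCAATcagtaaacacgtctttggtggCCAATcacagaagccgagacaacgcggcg
Such matches describe letters in these windows and no binding was measured. Of the 14 tested genes with CCGGAAG, 5 were higher and 4 lower with retinoic acid (median log2 difference -0.08), and of the 26 without it 15 were higher and 4 lower (median 0.43). Of the 20 tested genes with CCAAT 10 were higher and 3 lower (median 0.35), and of the 20 without it 10 were higher and 5 lower (median 0.35). GGGCGG occurred in 29 of the 42 promoters (69.1%, against 58.9% of the tested genes). TATAAA occurred in 5 (11.9%, against 8.83%) and CACGTG in 2 (4.76%, against 9.45%). Of the 28 tested genes with GGGCGG 15 were higher and 4 lower (median 0.46). Of the 12 without it 5 were higher and 4 lower (median 0.02).

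Fewer genes of the family were called in each knockdown course. Each course was compared with the empty vector on days 4 to 6, which asks what the loss of a single regulator does while LIF is present. Of the 315 pairs of a gene and a knockdown course, 48 were called (15.2%), against 16.0% of the 101906 pairs over all genes. Of the 45 genes, 22 were called in no knockdown course (48.9%, against 54.3% of all genes), and 6 were called in at least 3 courses (13.3%, against 17.4%). A 2-fold difference in any knockdown course was passed by 4 of the 45 (8.89%, against 18.3%).

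Hnrnpdl, a relative of Hnrnpd that binds AU-rich RNA and is regulated through its own splicing, was called most often. Its empty vector signals were 9484, 7126, 7443, 4919, 4688, 5309, 4267 and 4415 on days 0 to 7, so that it roughly declined through that course. In the Nanog course the signals were 11930, 9494, 10190, 8582, 8251, 14590, 11330 and 11110, and in the Tbx3 course 10840, 9078, 9571, 8764, 7439, 11270, 10060 and 10790. On days 4 to 6 every Nanog and Tbx3 sample was above every empty vector sample. The late log2 difference was called in 6 of the 7 courses: 1.23 ± 0.18 with Nanog (SE, adjusted p = 6.34e-07 by limma), 1.01 with Tbx3, 0.82 with Esrrb, 0.79 with Sox2, 0.77 with Mm343880 and 0.54 with Oct4 shRNA. In the Tcl1 course it was 0.50 and not called. With the mean of all its probe sets the Oct4, Sox2, Esrrb, Tbx3 and Mm343880 calls were lost, and after subtraction of days 0 and 1 the Nanog value was 0.87 (adjusted p = 0.0675 by limma).

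**Figure D3:**
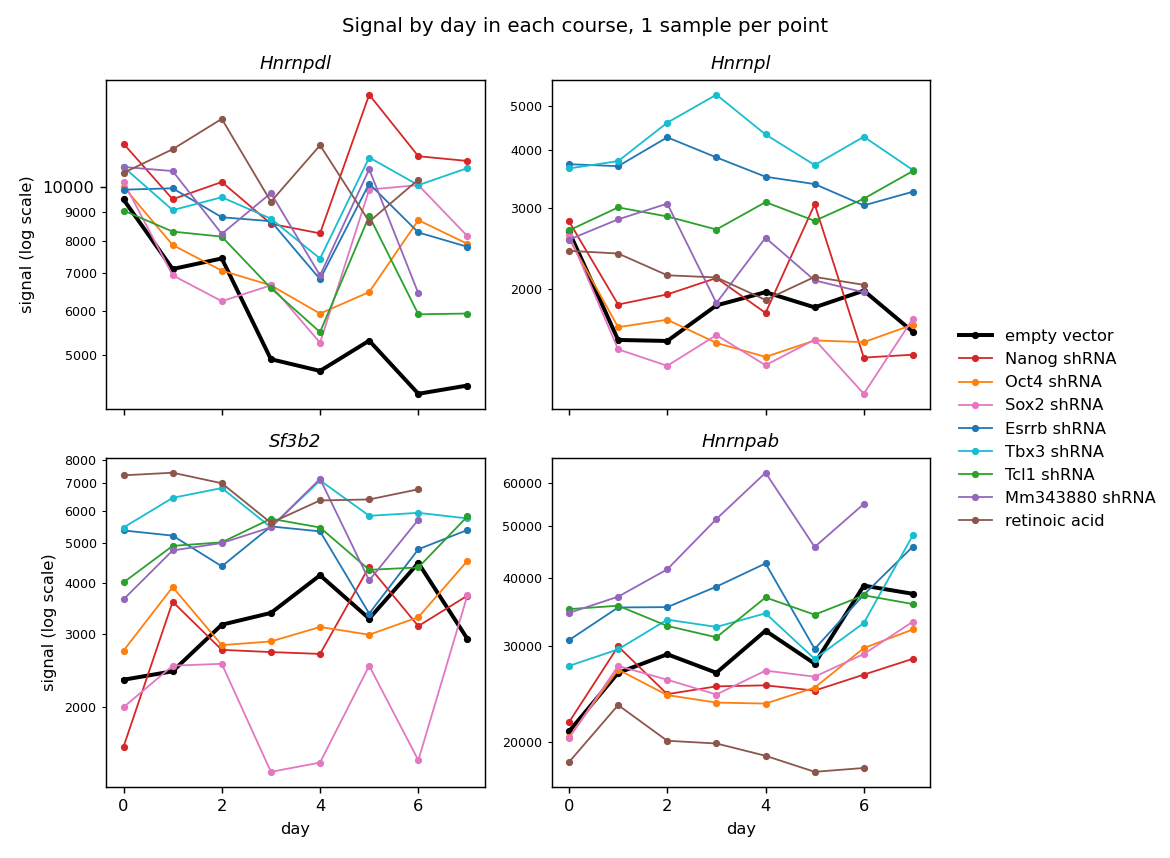
Signal by day (x axis, days; y axis, log-scaled signal in arbitrary units) of Hnrnpdl, Hnrnpl, Sf3b2 and Hnrnpab, with 1 line per course and 1 sample per point. Hnrnpdl falls in the empty vector course and lies above it in the knockdown courses on days 4 to 6, and Hnrnpl lies above it throughout the Esrrb and Tbx3 courses.

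In the Nanog course 3 genes were higher and 7 lower, against 12% and 10.0% of all genes. Hnrnph1 was higher by 1.19 ± 0.35 (SE, adjusted p = 0.0101 by limma), at 2332, 3068 and 4033 on days 4 to 6 against 1014, 1282 and 1868 in the empty vector course. The call was lost without day 5. With quantile normalization the counts were the same (3 and 7), while the share of all calls that were higher moved from 54.6% to 44.3%. Snrpb2 was the third gene called higher (0.55). Lower genes included Sf3b5 (-0.61), Sf3b3 (-0.44), Snrpa1 (-0.43) and Hnrnpa0 (-0.38), of which Sf3b5 was called under all 15 alternatives other than the subtraction of days 0 and 1, and Hnrnpa0 under 6 of the 15. For Sf3b5 the values were 10690 ± 2881 against 16380 ± 597 (SD, n = 3 days).

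In the Oct4 course 1 gene was higher and 5 lower, against 6.67% and 10.7% of all genes. The gene called higher was Hnrnpdl. The lower genes were Hnrnpll, which regulates splicing in lymphocytes (-0.48), Sf3b6 (-0.46), Sf3a3 (-0.41), Hnrnpa0 (-0.37) and Snrpc (-0.35). For Sf3a3 the signals were 1782 ± 337 against 2402 ± 192 (SD, n = 3 days). The Hnrnpa0 call held under 4 of the 15 alternatives. Without day 4, 2 genes were called in this course. Quantile normalization gave 1 higher and 2 lower.

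In the Sox2 course 1 gene was higher and 13 lower, against 12.1% and 12.2% of all genes, and SF3A and SF3B (6 of 9 lower) and snRNP proteins (5 of 8 lower) held most of the calls. Sf3b2, an SF3B subunit that contacts the pre-mRNA upstream of the branch point, had late signals of 1462, 2517 and 1481 against 4183, 3279 and 4481. The groups did not overlap, and the log2 difference was -1.10 ± 0.22 (SE, adjusted p = 0.000108 by limma). Another 4 bright probe sets of Sf3b2 were called lower by smaller amounts, -0.33 to -0.55. On day 7 the Sox2 sample read 3744 and the empty vector sample 2925. Snrpa1 (-0.67), Sf3b6 (-0.49) and Snrpe (-0.47) were also lower, Snrpe at 10940 to 12670 against 14880 to 18760. Without day 4 the course called 9 genes and without day 5 it called 8. Quantile normalization gave 2 higher and 9 lower.

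In these 3 courses all 10 trophectoderm markers were called higher on the same days, and their part in the values of the family was not tested. Most of these markers were also called higher in each of the other knockdown courses, as given below. After subtraction of the difference on days 0 and 1, 1 gene was called in the Nanog course (Srsf9, -0.65, against 1.12% of all genes called lower). At the same adjusted threshold limma called none in the Oct4 and Sox2 courses, against 1.43% and 2.63% of all genes in either direction. At an unadjusted p under 0.05 there were 1 and 7 genes of the family, for which no share of all genes is given. The subtraction also removes any effect of the shRNA present by day 1. Nanog, Pou5f1 and Sox2 were already lower on days 0 and 1 in their own courses and were not called after it either.

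The Esrrb, Tbx3 and Tcl1 courses shared a higher signal of Hnrnpl, which binds CA-rich RNA. Its empty vector signals on days 0 to 7 were 2669, 1554, 1546, 1846, 1972, 1828, 1987 and 1618. The Tbx3 samples read 3654, 3790, 4591, 5278, 4328, 3716, 4280 and 3624, the Esrrb samples 3732, 3696, 4267, 3861, 3506, 3380, 3039 and 3254, and the Tcl1 samples 2683, 3009, 2876, 2695, 3089, 2814, 3143 and 3608. Each of these samples exceeded the highest empty vector sample, from day 0 on. Late log2 differences were 1.05 ± 0.16 (SE, adjusted p = 6e-06 by limma) with Tbx3, 0.75 with Esrrb and 0.59 with Tcl1 shRNA. The differences on days 0 and 1 were already 0.82, 0.82 and 0.39. In the Sox2 course Hnrnpl was lower by 0.42.

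In the Esrrb course 3 genes were higher and 1 lower, against 7.45% and 5.3% of all genes. Besides Hnrnpdl and Hnrnpl, the higher gene was Hnrnpul1 (0.41), and Hnrnpul2 was lower by 0.67 late and by 1.0 on days 0 and 1. The calls of Hnrnpul1 and Hnrnpul2 held under 9 and 6 of the 15 alternatives. Without day 5 only 1 gene was called in this course, and without day 3 there were 2. In the Tbx3 course limma called 4 genes higher and none lower, against 6.25% and 5.69% of all genes at the same adjusted threshold. At an unadjusted p under 0.05, 1 was lower, with no share of all genes given. Hnrnpul1, an hnRNP U relative with roles in DNA repair, stood at 3293 ± 370 against 2215 ± 309 (SD, n = 3 days, log2 difference 0.60), and Sf3b2 was higher by 0.67 late and 1.27 early. In this course the Hnrnpul1 call held under all 15 alternatives and the Sf3b2 call under 8. In the Tcl1 course limma called 2 genes higher and none lower, against 5.06% and 4.06% of all genes at the same adjusted threshold. Again 1 was lower at an unadjusted p under 0.05, with no share of all genes given. The higher genes were Hnrnpl and Hnrnpc (0.48), the latter a core hnRNP that packages new transcripts. Without day 5 the Tcl1 course called 1 gene.

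In the Mm343880 course 5 genes were higher and 3 lower, against 7.56% and 7.2% of all genes. Hnrnpab had signals of 62590, 45700 and 54830 on days 4 to 6 against 32050, 27880 and 38800, a log2 difference of 0.76 ± 0.11 (SE, adjusted p = 6e-06 by limma). On days 0 and 1 the difference was already 0.61. Of the other probe sets of Hnrnpab 2 were called higher (0.77 and 0.35) and 1 lower (-0.54), and with the mean of all probe sets the call was lost. Snrpg was higher by 0.50, Hnrnpc by 0.48 and Hnrnpf by 0.45. Sf3b3, a large scaffold subunit of SF3B, read 4681, 2961 and 3410 late against 6571, 5122 and 5552 (log2 difference -0.70, and -0.70 on days 0 and 1), and it kept its call under the same 15 alternatives, though after subtraction of days 0 and 1 the difference was -0.01. Sf3b5 (-0.41) and Hnrnpa0 (-0.39) were lower as well, calls that held under 9 and 4 of the 15 alternatives. Without day 5 this course called 5 genes and without day 6, its last day, it called 2. Quantile normalization gave 2 higher and 3 lower.

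For the Esrrb, Tbx3, Tcl1 and Mm343880 courses, limma called none of the 45 genes once the difference on days 0 and 1 was subtracted. At this adjusted threshold the share of all genes called in either direction was 1.62%, 0.598%, 0.103% and 1.24%. At an unadjusted p under 0.05 there were 2, 9, 5 and 3 genes of the family, again with no share of all genes given. Here too the subtraction removes any effect of the shRNA present by day 1. Esrrb, Tbx3 and Tcl1 were already lower on days 0 and 1 in their own courses and were not called after it either.

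Nanog, Oct4 and Sox2 form the core circuit of pluripotency, and their 3 courses were compared directly with the other 4 knockdown courses, which leaves the empty vector samples out. On days 4 to 6, 1 gene was higher and 23 were lower in the core courses, against 14.6% and 16.8% of all genes (24 of 45 in either direction, against 31.4%). The median over the family was -0.21, and that over all genes was 0.02. Lower were 7 of 8 snRNP proteins, 6 of 9 SF3A and SF3B subunits, 8 of 19 hnRNPs and 2 of 9 SR proteins. Quantile normalization gave 1 higher and 16 lower. Individual differences were mostly small, and in each of the called genes the late samples of the 2 sets of courses overlapped. The p-values rest on scatter about the curve of each course. How far the courses within a set differ from each other does not enter them.

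Sf3b2 had a mean late signal of 2791 ± 913 in the core courses (SD, n = 9 samples) and 5297 ± 1170 in the others, a log2 difference of -0.95 ± 0.12 (SE, adjusted p = 8.93e-09 by limma). Another 4 probe sets of Sf3b2 were called lower too, by -0.20 to -0.57. Hnrnpl followed with -0.85 ± 0.08 (1654 ± 549 against 3162 ± 746), then Hnrnpab with -0.56, where 5 further probe sets were called lower, and Snrpa1 with -0.50. Hnrnph1, the 1 gene higher in the core courses (0.67), read 2728 ± 1328 against 1588 ± 766, and its call was lost without day 6. The core courses also differed from the others in trophectoderm markers (10 of 10 called higher) and in embryonic stem cell markers (9 of 10 called lower), whose part in these values was not tested.

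**Figure D4:**
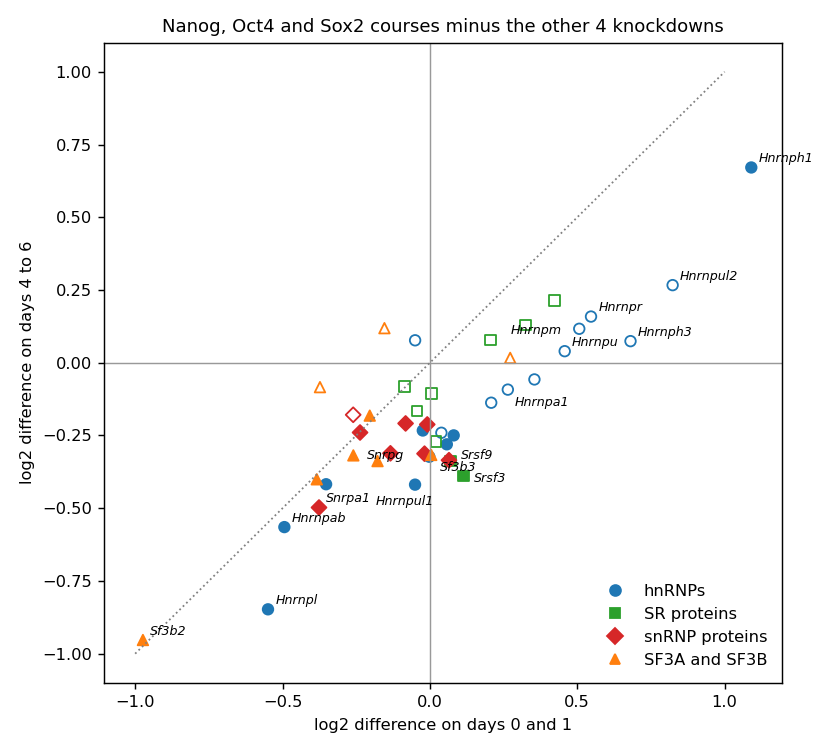
Log2 difference between the core courses (Nanog, Oct4 and Sox2) and the other 4 knockdown courses on days 0 and 1 (x axis) and on days 4 to 6 (y axis), with 1 point per gene; filled points passed an adjusted p of 0.05 on days 4 to 6, and the dotted line marks equal differences. Sf3b2, Hnrnpl and Hnrnpab lie low on both axes, Hnrnph1 lies high on both, and most filled points sit below the line.

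On days 0 and 1 the same courses already differed in 8 genes upward and 8 downward, against 10.9% and 7.26% of all genes. Higher early were 8 hnRNPs: Hnrnph1 (1.09), Hnrnpul2 (0.82), Hnrnph3 (0.68), Hnrnpr, Hnrnpm, Hnrnpu, Hnrnpa2b1 and Hnrnpa1. Lower early were Sf3b2 (-0.97), Hnrnpl (-0.55), Hnrnpab (-0.49), Sf3a3, Snrpa1, Sf3b5, Hnrnpc and Snrpc. Such a difference can lie in either set of courses. Against the empty vector, early Hnrnph1 differed by 0.30, 0.24 and 0.17 with Nanog, Oct4 and Sox2 shRNA. With Esrrb, Tbx3, Tcl1 and Mm343880 shRNA it differed by -0.94, -0.98, -1.25 and -0.24. For Sf3b2 the values in the same order were -0.15, 0.34 and -0.13, then 1.10, 1.27, 0.85 and 0.75. Of the 24 late calls 8 were also called early, all in the same direction, and 16 were not. After the early difference was subtracted, 6 genes were called and all were lower: Srsf3 (-0.50), Srsf9 (-0.41), Hnrnpul1 (-0.37), Hnrnpa1, Sf3b3 (-0.32) and Snrpg (-0.29). The corresponding shares of all genes were 2.27% higher and 3.79% lower.

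Retinoic acid was also set against the mean of the 7 knockdown courses, which shares its retinoic acid samples with the comparison above but not its empty vector samples. Here too, differences among the knockdown courses do not enter the p-values. On days 4 to 6, 22 genes were higher and 11 lower, against 30.3% and 24.3% of all genes. The 2 largest differences upward were those of Hnrnph1 (2.12) and Hnrnpr (1.73), the 2 largest downward were those of Snrpf (-1.10) and Sf3b5 (-0.91), and each kept its call under the same 15 alternatives. For Snrpf the late signals were 1309 ± 33 with retinoic acid (SD, n = 3 samples) and 2844 ± 443 over the knockdown courses, without overlap. On days 0 and 1, 16 genes were higher and 5 lower (13.4% and 11.5% of all genes), and with that difference subtracted 2 were higher and 8 lower (13.8% and 13.0%). Hnrnpa0 was among the 2 higher ones (0.50, adjusted p = 0.0172 by limma), and Snrpa1 (-0.93) and Sf3a1 (-0.59) were among the lower. Leaving out day 6, the last day of the retinoic acid course, reduced the late calls from 33 to 17. Quantile normalization gave 25 higher and 10 lower, with the median of all genes moved from 0.08 to -0.17 and the share of all calls that were higher from 55.5% to 39.3%.

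**Figure D5:**
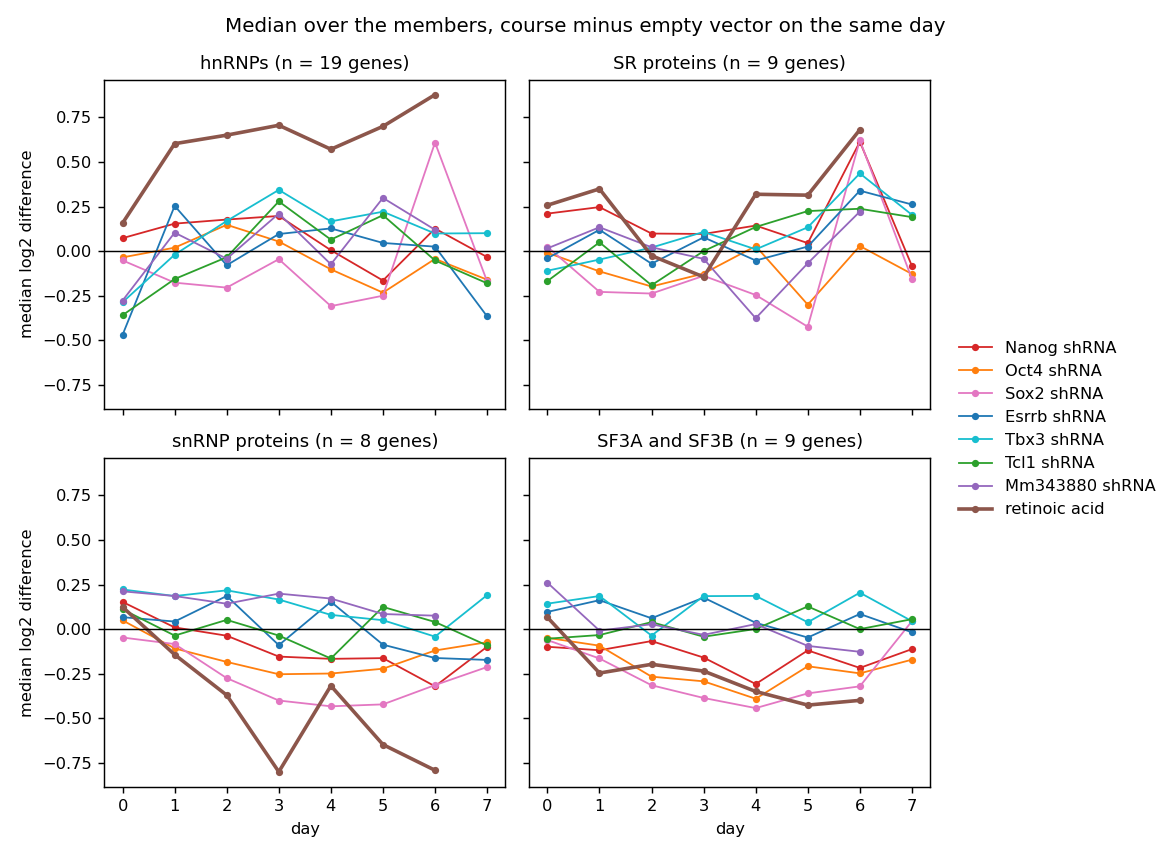
Median log2 difference from the empty vector sample of the same day (y axis) by day (x axis) for each class of the family, with 1 line per course. With retinoic acid the hnRNP median lies between 0.57 and 0.88 from day 1 to day 6 and the snRNP median is -0.80 on day 3, -0.32 on day 4 and -0.79 on day 6.

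The family also changed within courses, in the empty vector too. From days 0 and 1 to days 4 to 6 of the empty vector course 2 genes fell, Srsf5 (by 1.13 on the log2 scale) and Hnrnpdl (by 0.84), against 0.515% of all genes that rose and 0.261% that fell. In the Nanog course 6 fell (6.34% of all genes rose and 4.5% fell), with Srsf5 (by 0.92) and Hnrnpd (by 0.71) in the lead. In the Oct4 course 1 rose, Sf3b5 (0.51), and 7 fell, among them Srsf5 (by 0.86) and Hnrnpa2b1 (by 0.71), against 4.33% and 4.05% of all genes, and quantile normalization left 3 falls. In the Mm343880 course Hnrnpab rose (0.58) and 4 genes fell, Srsf5 (by 1.04) and Srsf11 (by 0.77) the most, against 5.65% and 3.58%, and quantile normalization gave 5 falls.

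In the Sox2 course Snrpd3 (by 0.60) and Snrpg (by 0.39) fell (4.53% of all genes rose and 3.21% fell), and without day 6 there were 12 falls. In the Tbx3 course Hnrnpul1 rose by 0.59 and Srsf6 fell by 0.67, against 3.7% and 1.04%. Limma called none of the family in the Esrrb and Tcl1 courses at the same adjusted threshold. In either direction 6.66% and 2.27% of all genes were called there. At an unadjusted p under 0.05 there were 2 and 3 genes of the family, with no share of all genes given. Without day 0, which leaves a single early sample, all of these calls were lost in the empty vector, Nanog, Oct4, Sox2, Tbx3 and Mm343880 courses.

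On day 0 itself the signal was the highest of the course for 22 of the 45 genes in the empty vector, 25 in the Nanog, 29 in the Oct4, 25 in the Sox2, 17 in the Mm343880 and 21 in the retinoic acid course. In the Esrrb, Tbx3 and Tcl1 courses it was so for 6, 8 and 7 genes. In the empty vector course 13 of the 22 genes that peaked on day 0 were hnRNPs. Day 0 of each course is a single sample, and no share of all genes is given for these counts. Whether other genes peaked on day 0 to the same extent was not tested.

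Other genes of the pathway were read from lists of splicing factors outside these symbols. Of 56 further core spliceosome genes, 11 were higher and 34 lower with retinoic acid, against 27.5% and 23.5% of all genes, shares that stand beside every retinoic acid count of these lists. In the core courses against the other knockdowns 3 were higher and 28 lower, against 14.6% and 16.8% of all genes. In the Sox2 course 18 of the 56 were lower, against 12.2% of all genes, and the others were not called. Examples with retinoic acid were Dhx16, a helicase that activates the spliceosome (-1.85), and Lsm4, of the ring on U6 RNA (-1.46). Of 15 genes of snRNP assembly 8 were lower and 3 higher with retinoic acid. Prmt5, which methylates Sm proteins before they are loaded, read 1851 ± 121 against 7029 ± 665 (SD, n = 3 days, log2 difference -1.88), and Gemin2, of the SMN loading complex, differed by -1.35.

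Of 27 SR-related proteins and SR kinases 20 were higher with retinoic acid and the others were not called. With Nanog shRNA 12 were higher and 1 lower (12% and 10.0% of all genes), with Tbx3 shRNA 12 were higher (6.25%) and with Mm343880 shRNA 8 (7.56%). Luc7l3, a U1-associated SR-like protein, was higher by 2.47 with retinoic acid and by 1.40 with Nanog shRNA. Of 22 other hnRNP-like nuclear proteins 12 were higher and 4 lower with retinoic acid, with Taf15 at 1.97 and Rbmx at 1.90.

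Among 32 tested regulators of alternative splicing 10 were higher and 5 lower with retinoic acid, against 27.5% and 23.5% of all genes. Mbnl1, which promotes differentiated splicing patterns, was higher by 2.55 and Esrp1, an epithelial splicing regulator, was lower by 1.90. Mbnl3 was higher in all of the core courses, by 2.70 with Nanog, 2.45 with Oct4 and 3.25 with Sox2 shRNA. Of 7 genes of the minor spliceosome 3 were higher and 3 lower with retinoic acid. Of 11 genes of the exon junction complex and nonsense-mediated decay 4 were higher and 5 lower, beside the same shares of all genes. The retinoic acid samples also held more signal of fibroblast markers (a sum of 10 genes of 18260 to 27140 against 1409 to 1643 on days 4 to 6) and of extraembryonic endoderm markers (36220 to 47180 against 6110 to 7955). Whether these cell types contribute to the splicing factor signals was not tested.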

How the data were processed

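The data were 140 arrays (Affymetrix MOE430A and MOE430B) of 70 RNA samples, placed in courses and days by their labels. The deposited value of a probe set on an array was its intensity (linear scale), computed by the authors with MAS5, per the submitters' processing notes. Its version is not given in those notes. The members and the lists were chosen with earlier results of these data known. Values were analysed as log2(signal + pseudocount), the pseudocount being 63.1 for A and 21.8 for B (the 20th percentile of each table). This understates the change of dim genes. A gene was tested where its brightest probe set exceeded the table median on at least 3 arrays, which left 14558 genes. The linear model (limma 3.58.1, R 4.3.3, lmFit and eBayes with trend) gave each course its own natural spline of day with 3 df, separately for A and B. Benjamini-Hochberg adjustment ran over the genes of both tables, and an adjusted p under 0.05 was called. Late values average the curve over days 4 to 6 and early values over days 0 and 1. The fit was tested on simulated data. No pair of arrays was closer than a correlation of 0.984, so none was counted as a copy.

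The text names up to 4 passing members each way per late difference that had that sign on days 4, 5 and 6, up to 2 per change over time or direct comparison, the brightest and dimmest members, the subunits of a complex side by side and up to 2 genes each way of each pathway list. Other members named were chosen after their values were seen. Alternatives were a pseudocount of 1, no filter, quantile normalization, a gene's mean over its probe sets, a 2 df spline, day as a block in place of the spline, eBayes with no trend, and each day left out. Subtraction of days 0 and 1 and a fit of every probe set were chosen after seeing the data. Motif counts come from RefSeq promoter sequence of GRCm38.p6. A Dppa4 course was not analysed here.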

Additional observations from a re-analysis of the deposited data

Results flagged for a closer look

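A difference between groups of courses was tested directly in a pair of comparisons. Between the Nanog, Oct4 and Sox2 courses and the other 4 knockdown courses 24 of the 45 genes differed on days 4 to 6 by limma, 23 of them lower, against 31.4% of all genes. Between the retinoic acid course and the mean of the knockdown courses 33 of the 45 differed, against 54.6% of all genes. In both comparisons part of the difference was present on days 0 and 1, and 6 and 10 genes were called after its subtraction. The causes were not tested. The median signal of the 45 genes was examined in each of the 9 courses for a day far from the others, and none was flagged. A median over all classes can miss a shift of a single class. In the Sox2 course hnRNPs had a median log2 difference from the same day's empty vector of -0.25 on day 5. It was 0.61 on day 6 and -0.17 on day 7.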

How the results depend on the processing

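A pseudocount of 1 kept every count of called genes within 1.5 times. Hnrnpab with retinoic acid reversed in sign with the mean of all probe sets (0.18) but was not called there (adjusted p = 0.1175 by limma). Its probe sets disagree in sign, and the cause was not tested. Subtraction of days 0 and 1 gave late counts of 1 for Nanog, 0 each for Oct4, Sox2, Esrrb, Tbx3, Tcl1 and Mm343880, 10 for retinoic acid, 6 for the core courses and 10 for retinoic acid against the knockdowns. Fits of every probe set called 11 genes for Oct4, 8 for Esrrb, 10 for Tbx3 and 6 for Tcl1. A spline with 2 degrees of freedom gave 10 for Oct4, 7 for Esrrb, 8 for Tbx3 and 4 for Tcl1 late, and changes over time of 5 for Oct4 and 4 for Sox2. Without a spline there were 9 for Sox2 and 5 for Mm343880 late, and changes of 1 for the empty vector, 3 for Nanog, 0 for Oct4, 0 for Sox2, 1 for Esrrb and 1 for Tbx3. Quantile normalization gave 3 for Oct4 and 5 for Mm343880 late, and a change of 3 for Oct4. The mean of all probe sets gave 4 for Mm343880 late, and changes of 1 for the empty vector, 1 for Sox2, 1 for Tbx3 and 3 for Mm343880. No filter and eBayes without trend each gave a change of 1 for the empty vector. The cause was not tested for these.

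Leaving out each day in turn gave late counts of 6 to 12 (Nanog), 2 to 5 (Oct4), 8 to 15 (Sox2), 1 to 5 (Esrrb), 3 to 4 (Tbx3), 1 to 2 (Tcl1), 2 to 8 (Mm343880) and 15 to 34 (retinoic acid). The Nanog count was 6 without day 2. The core courses ranged from 17 to 25 and retinoic acid against the knockdowns from 17 to 33. Changes over time ranged from 0 to 6 (empty vector), 0 to 8 (Nanog), 0 to 9 (Oct4), 0 to 12 (Sox2), 0 to 2 (Esrrb), 0 to 2 (Tbx3), 0 to 1 (Tcl1), 0 to 10 (Mm343880) and 3 to 15 (retinoic acid). The highest counts were without day 5 for the empty vector and Mm343880 and without day 6 for Sox2. Over the named members, 799 values kept their call, 190 lost it and 1 reversed. The labels give no replicate numbers, and samples of the same day were paired across courses only in the fit with day as a block in place of the spline, given above. Dim probe sets are limited by their signal over background, which the deposited values do not give.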

Other observations

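Single samples held the extremes of several courses. In the Sox2 course 16 of the 45 genes had their lowest signal on day 4 and 11 their highest on day 6, where Hnrnph1 read 5610 against 1567 on day 4 and 1714 on day 7. In the Nanog course 18 genes had their lowest signal on day 5, while Hnrnpdl had its highest there (14590). In the empty vector course 16 genes were lowest on day 6. Each of these days is 1 sample, no share of all genes is given for these counts, and the causes were not tested.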
